A study of Danio rerio with 7 samples.

Results

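The genes described here belong to the ubiquitin system and the proteasome, the route by which cells tag proteins and take them apart. They were found by symbol prefix: ube2, ube3, uba plus a digit, ubb, ubc, usp, otu, rnf, trim, fbxo, fbxl, fbxw, cul plus a digit, march plus a digit, and psma to psme. The muscle RING finger genes of the names trim54, trim55 and trim63 were left out. The rule found 66 identifiers among the 3651 that have a symbol, out of 4449 identifiers in 8 gene modules. It used names only and no measured value.

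The modules come from single cells of adult zebrafish hearts, taken 7 days after cryoinjury, in which part of the ventricle is killed by a cold probe. Whether all of these cells were heart muscle was not tested. All fish carried nppa:mCitrine, a fluorescent reporter driven by the natriuretic peptide gene that injured heart muscle switches on, and mCitrine-positive cells were sorted into plates of 384 wells with 1 cell per well. The labels give 3 wildtype plates and 4 hmga1a mutant plates, hmga1a encoding a chromatin protein of the high mobility group; they name neither the mutant allele nor the age and number of the fish, so fish may share plates. The deposited lists hold identifiers without values, so levels, depth and replicate error are unknown. No plate entered a comparison, and a module is a place in a list and not a direction of change.

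As a check on the sorted cells, 8 cardiomyocyte marker names matched 6 identifiers in the modules. They were MYL7, actc1a and tnnc1a in module 7, nppa in module 5, MYH6 in module 4 and myh6 in module 6. MYH6 and myh6 share 1 marker name, so fewer than 6 of the 8 names were found. Of 12 leukocyte markers, 9 lay in a module, 5 of them in module 3 and 4 in module 1, and of 11 endothelial markers 7 did, 5 of them in module 3. Of 9 fibroblast and epicardial markers 3 lay in a module, 1 each in modules 1, 3 and 4, and of 5 erythrocyte markers 1 did, in module 1. The part of other cell types in the place of any ubiquitin gene was not tested.

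Ubiquitin is a small protein that is attached to other proteins. An activating enzyme (E1) charges it, a conjugating enzyme (E2) carries it and a ligase (E3) chooses the target, while ubiquitin proteases take it off again. Chains of ubiquitin send most targets to the proteasome, a barrel of alpha and beta subunits whose cap unfolds the target and feeds it in. In heart muscle this route is known for the turnover of sarcomere proteins and for muscle wasting.

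The 66 members were 35 ligases or parts of ligases, 13 proteases, 10 proteasome genes and 8 genes of ubiquitin itself and its activation and conjugation. Module 1 held 17 of them, module 6 held 16, module 5 held 13, module 2 held 10, module 4 held 5, module 7 held 3 and modules 3 and 8 held 1 each. Module 1 therefore held 25.8% of the members (exact 95% Clopper-Pearson interval 15.8% to 38.0%), against 33.4% of all identifiers with a symbol. Module 6 held 24.2% of the members (interval 14.5% to 36.4%) against 10.2% of all, which is 2.39 times the share of all. Module 5 held 19.7% of the members (interval 10.9% to 31.3%) against 11% of all, or 1.78 times. Module 2 held 15.2% against 14% of all, close to the background. The share of members was below that of all in module 4 (7.58%, interval 2.51% to 16.8%, against 10.8%) and module 7 (4.55%, interval 0.947% to 12.7%, against 9.23%). It was also below in module 3 (1.52%, interval 0.0384% to 8.16%, against 7.75%) and module 8 (1.52%, interval 0.0384% to 8.16%, against 3.59%). The intervals of these modules, and of modules 1, 2 and 5, held the share of all. Counted per module, 4.31% of the named genes of module 6 and 3.23% of those of module 5 were members, against 0.890% in module 7 and 0.353% in module 3. These shares are descriptions without a test; the intervals cover counting error only, and genes of a family are not independent of each other.

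**Figure D1:**
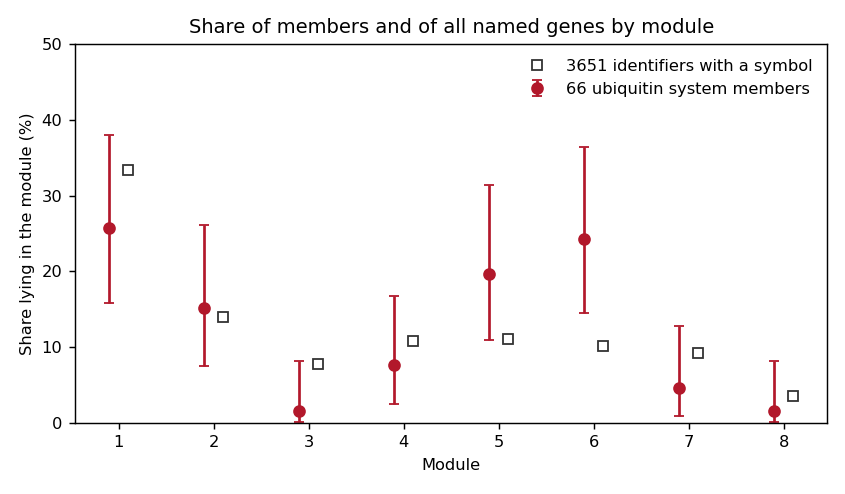
Share (%) lying in each of the 8 modules, for the 66 ubiquitin system members (filled circles, bars the exact 95% interval for counting error) and for the 3651 identifiers with a symbol (open squares). The circles stand above the squares in modules 2, 5 and 6 and below them in the other 5 modules.

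Ubiquitin itself is encoded by several genes. UBB (ENSDARG00000002369), a polyubiquitin gene whose product is cut into single ubiquitins, lay in module 2. A further identifier named ubb and the other polyubiquitin gene, ubc, lay in no module. The module 2 list, with 14% of all named genes, also held uba1 (ENSDARG00000037559), the main E1 of ubiquitin. UBB and uba1 thus shared a module, as do 18.1% of all pairs of named genes. UBA2 and UBA3, which encode parts of the E1 enzymes of ubiquitin-like proteins, lay in no module, and neither did UBA6 and uba7.

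Of the E2 genes, 5 lay in a module. Module 5, which also holds hmga1a and nppa, held 3 of these (60%, interval 14.7% to 94.7%), against 11% of all named genes. They were UBE2D1 (ENSDARG00000029107), ube2d1b (ENSDARG00000038576) and ube2al (ENSDARG00000003017), the last named as a relative of UBE2A, the E2 of the Rad6 type. UBE2D1 and ube2d1b share a symbol stem, so they are not independent, and belong to an E2 group that serves many RING ligases. UBE2QL1 (ENSDARG00000079276) lay in module 6. UBE2K (ENSDARG00000089055), an E2 that builds ubiquitin chains by itself, lay in module 7. None lay in modules 1, 2, 3, 4 or 8. The 5 were 11.9% of the 42 E2 symbols of the name table, where 12.5% of all named genes lay in any module.

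The ligases were the largest class. Module 1 held 14 of the 35 (40.0%, interval 23.9% to 57.9%), near its 33.4% of all named genes. Module 6 held 8 (22.9%, interval 10.4% to 40.1%), against 10.2% of all named genes, a share just below that interval. Module 2 held 5, module 5 held 4, module 4 held 2, and modules 3 and 7 held 1 each.

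Among the single-chain RING ligases of the rnf names, 4 of 10 lay in module 1, close to its 33.4% of all named genes. RNF111 (ENSDARG00000078802) promotes TGF-beta and Nodal signalling by removing inhibitors of that pathway. RNF19A and RNF19B are a pair of membrane ligases of the RING-between-RING type, and RNF34 is known in mammals for binding caspases. Module 6 held RNF207 (ENSDARG00000012409), known in mammalian heart for its effect on a potassium channel of repolarization, and RNF145 (ENSDARG00000002609), a ligase of the endoplasmic reticulum that acts on the rate-limiting enzyme of cholesterol synthesis. RNF26, also a ligase of the endoplasmic reticulum, lay in module 5, and RNF24 and RNF157 lay in module 2. No rnf gene lay in modules 3, 4, 7 or 8.

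The 12 TRIM members, RING ligases with a B-box and a coiled coil, were spread over 6 modules with at most 4 in any of them. Module 1 held trim25l, a relative by name of the mammalian antiviral ligase TRIM25, together with TRIM46, known in mammalian neurons for bundling microtubules, trim35-27 and a TRIM8 identifier (ENSDARG00000060729). The symbol TRIM8, a regulator of inflammatory signalling in mammals, also stood on an identifier of module 5 (ENSDARG00000090512), beside TRIM13, which is anchored in the endoplasmic reticulum. Module 2 held trim65, named after a mammalian ligase of antiviral signalling, and trim35-39. Module 6 held trim2b and trim69, the latter named after a protein of the centrosome and microtubules. TRIM44, a TRIM protein that lacks the RING domain, lay in module 4. The single member of module 3, the module with most leukocyte and endothelial markers, was trim35-4.

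Cullins are scaffolds on which a RING protein and a substrate adaptor meet. CUL1 (ENSDARG00000007691), the scaffold of ligases that use F-box proteins, lay in module 1. CUL5 (ENSDARG00000069742), whose adaptors carry a SOCS box, lay in module 6, and CUL4B (ENSDARG00000060510), whose adaptors dock through DDB1, lay in module 7. Each of the 3 thus stood in a module of its own, while 18.1% of all pairs of named genes share a module. CUL2, CUL4A and both CUL3 identifiers lay in none, and neither did cul1a and cul5b, so 1 identifier each of the CUL1 and CUL5 names was listed.

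F-box proteins are the substrate adaptors of CUL1, and 5 of the 10 lay with CUL1 in module 1, where 33.4% of all named genes lie. They were FBXO30, which drives atrophy in mouse skeletal muscle, FBXL14, which removes the transcription factor SNAI1, FBXL20 and FBXO41, both described in mammalian neurons, and fbxo44.10. Module 6 held FBXL5, an iron sensor that removes iron regulatory proteins, with FBXL2 and FBXO38. The others were fbxo44.3 in module 2 and fbxl3l in module 4, the latter named after the mammalian adaptor that removes the clock proteins called cryptochromes. None of the 9 fbxw symbols, which include FBXW7, lay in a module (interval 0% to 33.6%, against 12.5% of all named genes).

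**Figure D2:**
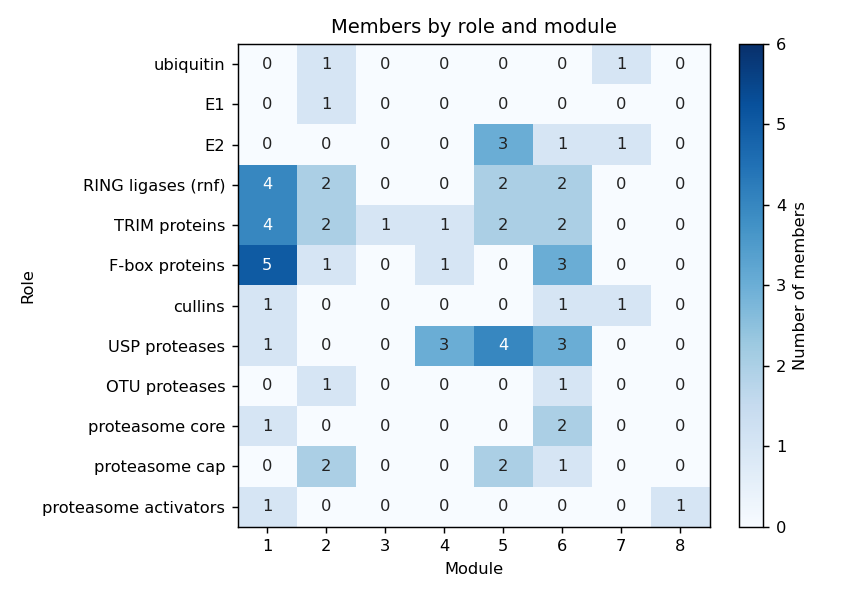
Number of members of each role (vertical axis) in each module (horizontal axis), with the count printed in each cell. F-box proteins have 5 members in module 1, USP proteases have 4 in module 5, and modules 3 and 8 have a single member each.

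Of the 13 proteases, 4 lay in module 5 (30.8%, interval 9.09% to 61.4%), 4 in module 6 and 3 in module 4, while modules 1 and 2 held 1 each. Module 1, with 33.4% of all named genes, thus held 7.69% of the proteases (interval 0.195% to 36.0%). Modules 5, 6 and 4 hold 11%, 10.2% and 10.8% of all named genes. In modules 1, 4, 5 and 6 the exact interval of the protease share held the share of all. Whether ligases and proteases differ in their places was not tested.

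In module 5 the proteases were USP5, which takes apart free ubiquitin chains, USP9Y, a relative by name of USP9X, usp54a, and USP39, a splicing factor with the fold of a ubiquitin protease but without its activity. Module 6 held USP7 (ENSDARG00000073710), which stabilises the p53 ligase MDM2, USP28, known in mammals for stabilising MYC, usp40 and OTUD7A. Module 4 held USP32, USP44, a regulator of the mitotic checkpoint in human cells, and uspl1, which acts on SUMO, a relative of ubiquitin, and not on ubiquitin itself. USP38 was the protease of module 1. OTUD7B (ENSDARG00000017220), an OTU protease that restrains NF-kappaB signalling in mammals, lay in module 2, apart from its close relative OTUD7A. Modules 3, 7 and 8 held no protease of these names.

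The 10 proteasome genes lay in 5 modules, with 3 in module 6, 2 each in modules 1, 2 and 5 and 1 in module 8, and with none in modules 3, 4 and 7. Modules 1, 2, 5 and 6 hold 33.4%, 14%, 11% and 10.2% of all named genes, and with so few genes the exact interval of the proteasome share held the share of all in each of the 8 modules. Of the core barrel, the alpha subunit PSMA5 (ENSDARG00000003526) and the beta subunit PSMB4 (ENSDARG00000054696) lay in module 6 and the alpha subunit PSMA6 (ENSDARG00000013966) in module 1. PSMB4 is a structural subunit without a catalytic site. The catalytic subunits PSMB5, PSMB6 and PSMB7 and their immune forms PSMB8, PSMB9 and PSMB10 each had 1 identifier in the name table and none in any module. Most other core genes lay in no module either: 3 of the 24 core symbols were listed (12.5%), against 12.5% of all named genes.

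In the cap, the ATPases PSMC5 (ENSDARG00000015315) and PSMC6 (ENSDARG00000037038), both of the ring that unfolds targets, lay in modules 6 and 2. PSMD11 (ENSDARG00000060150), a scaffold of the lid, lay in module 2. PSMD14 (ENSDARG00000063100), the metalloprotease of the lid that cuts ubiquitin off as the target enters, lay in module 5 with PSMD9 (ENSDARG00000006300), a chaperone of cap assembly that is not part of the finished proteasome. The activators PSME4 (ENSDARG00000018742) and PSME3 (ENSDARG00000012234), which open the barrel without the usual cap, lay in modules 1 and 8. PSME3 was the single member of module 8. A further identifier each of the names PSMA6, PSMD11 and PSME4 lay in no module.

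Genes of the cytosolic ribosome and of NADH dehydrogenase, matched by prefix, lay together. This comparison was not part of the plan, and other large complexes were not counted. Whether the spread of the proteasome genes is unusual was not tested. All 61 identifiers whose symbols follow the rpl and rps pattern of cytosolic ribosomal proteins lay in module 7, as did all 17 NADH dehydrogenase subunits of the nduf names, against at most 3 of 10 proteasome genes in any module. The complexes also differ in how much of them was listed. The modules held 83.6% of the 73 ribosomal symbols and 42.5% of the 40 nduf symbols of the name table. They held 18.2% of the 55 proteasome symbols (interval 9.08% to 30.9%). Of all named genes 12.5% lay in a module, a share inside that interval. The 55 include PSMC3IP and PSME3IP1, which match the prefix but are named as partners and not subunits. Whether the unlisted genes were undetected or detected and left out is not known.

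Over all families, 66 of the 397 symbols of the name table that match the rule lay in a module (16.6%, interval 13.1% to 20.7%), against 12.5% of all named genes. The usp family had 11 of 50 (22.0%, interval 11.5% to 36.0%), the trim family 12 of 63 (19.0%, interval 10.2% to 30.9%) and the fbxl family 5 of 19 (26.3%, interval 9.15% to 51.2%). The usp, trim and fbxl intervals all held the 12.5%. The rnf family, with 10 of 81 (12.3%), and the fbxo family, with 5 of 44 (11.4%), were near the background. None of the 4 ube3 ligases, UBE3B, UBE3C, UBE3D and ube3a, lay in a module.

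**Figure D3:**
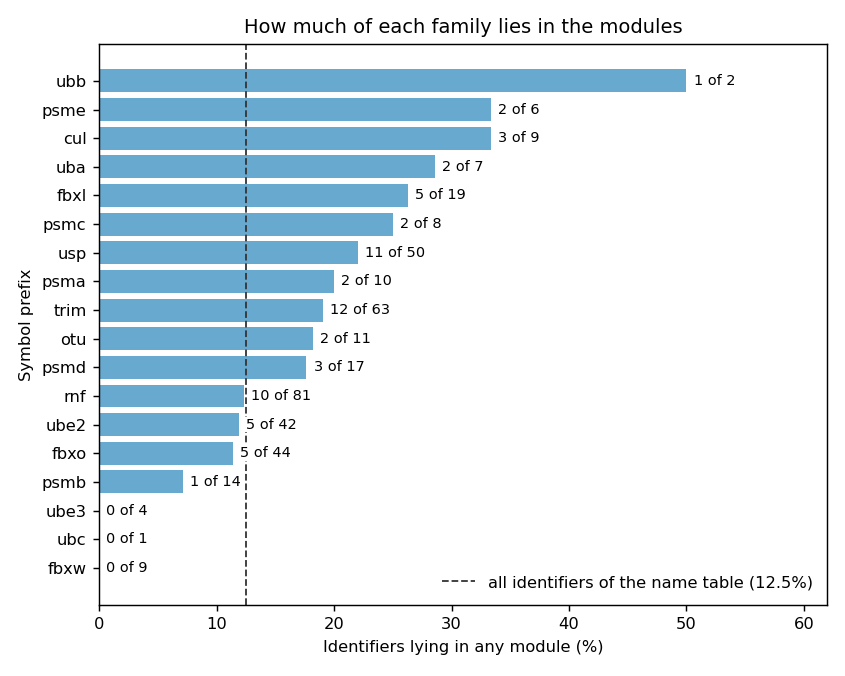
Percent of the identifiers of each symbol prefix in the name table that lie in any module, with the counts printed beside each bar. The dashed line marks the 12.5% of all named genes. No identifier of ube3, ubc or fbxw lay in a module. Bars of usp, trim, fbxl, cul, otu, uba, ubb, psma, psmc, psmd and psme end to the right of the line.

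Symbols that share a stem formed 6 groups of relatives by name, with 13 members in all. Of the 6 groups, 2 lay whole in 1 module, near the 32.2% of the 205 such groups among all named genes: RNF19A with RNF19B in module 1 and UBE2D1 with ube2d1b in module 5. The TRIM8 identifiers, OTUD7A with OTUD7B, fbxo44.3 with fbxo44.10, and trim35-4, trim35-27 and trim35-39 were split. The trim35 stem has 25 identifiers in the name table and the fbxo44 stem has 7. Reads of such near copies can be shared or swapped in counting, so the place of a single trim35 or fbxo44 gene is uncertain.

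The names carry a further limit. Of the 66 members, 49 have capitalised, human-style symbols that may lack a final a or b, and for 15 members the RefSeq table lists several zebrafish copies, as cul1a and cul1b for CUL1 or psme4a and psme4b for PSME4. For 2 members, USP9Y and fbxo44.10, it lists no such symbol.

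The authors' annotation charts list which module genes fall under each term. Every term in them has an unadjusted p under 0.1 and a fold enrichment above 1, so a gene absent from a chart may still be annotated. In the authors' deposited table, 22 of 834 terms name ubiquitin, the proteasome, proteolysis, protein breakdown or ligase activity: 9 of the 87 terms for module 5, 5 of 115 for module 6, 4 of 202 for module 1, 2 of 92 for module 2, 1 of 78 for module 4, 1 of 18 for module 8, 0 of 87 for module 3 and 0 of 155 for module 7. Of the 22, 17 name ubiquitin, and the term of module 8, ligase activity, is a general enzyme class that listed no member. None of the 22 had a Benjamini-adjusted p under 0.05 in the authors' deposited table, against 13.9% of all 834 terms, and 12 of the 22 (54.5%) had an unadjusted p under 0.05, against 63.5% of all 834. The lowest adjusted p of the 22 in the authors' deposited table was 0.227, for protein catabolic process in module 6 (4 genes, PSMC5 among them, 15.4-fold enrichment, unadjusted p = 0.00203).

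For module 6 the authors' deposited table also lists proteasome-mediated ubiquitin-dependent protein breakdown, with 8 genes and a 3.67-fold enrichment (unadjusted p = 0.00634, adjusted p = 0.436). Of those 8, PSMA5, PSMB4, PSMC5 and trim2b are members. The term for breakdown that depends on SCF ligases, the cullin and F-box type, held 4 genes of module 6 in the authors' deposited table, and all 4 were members: FBXL2, FBXL5, FBXO38 and CUL5 (4.63-fold, unadjusted p = 0.0548, adjusted p = 1). CUL5 is annotated there although its own adaptors carry SOCS boxes and not F-boxes.

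For module 5 the authors' deposited table lists protein deubiquitination with 5 genes, all of them members: PSMD14, USP5, USP9Y, USP39 and usp54a (3.56-fold, unadjusted p = 0.0519, adjusted p = 1). In the authors' deposited table for module 5, ubiquitin-dependent protein breakdown listed UBE2D1, ube2d1b, USP5, USP9Y and RNF26 among its genes (2.26-fold, unadjusted p = 0.0470, adjusted p = 1). Polyubiquitination, with 6 genes in the authors' deposited table for module 5, includes the E2 members ube2al, UBE2D1 and ube2d1b (2.77-fold, unadjusted p = 0.0660).

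For module 2 the authors' deposited table lists protein ubiquitination with 14 genes, among them UBB, uba1, RNF157, fbxo44.3 and trim35-39 (1.62-fold, unadjusted p = 0.0926, adjusted p = 1). The breakdown of misfolded proteins of the endoplasmic reticulum listed PSMC6 and fbxo44.3 in the authors' deposited table, with a 3.90-fold enrichment and an adjusted p of 1. For module 4, proteolysis in the authors' deposited table held 16 genes, including USP32, USP44 and uspl1 (1.73-fold, unadjusted p = 0.0462). For module 1 the 4 such terms in the authors' deposited table listed a single member, PSMA6, under proteolysis in protein breakdown (8 genes, 2.53-fold, unadjusted p = 0.0380).

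**Figure D4:**
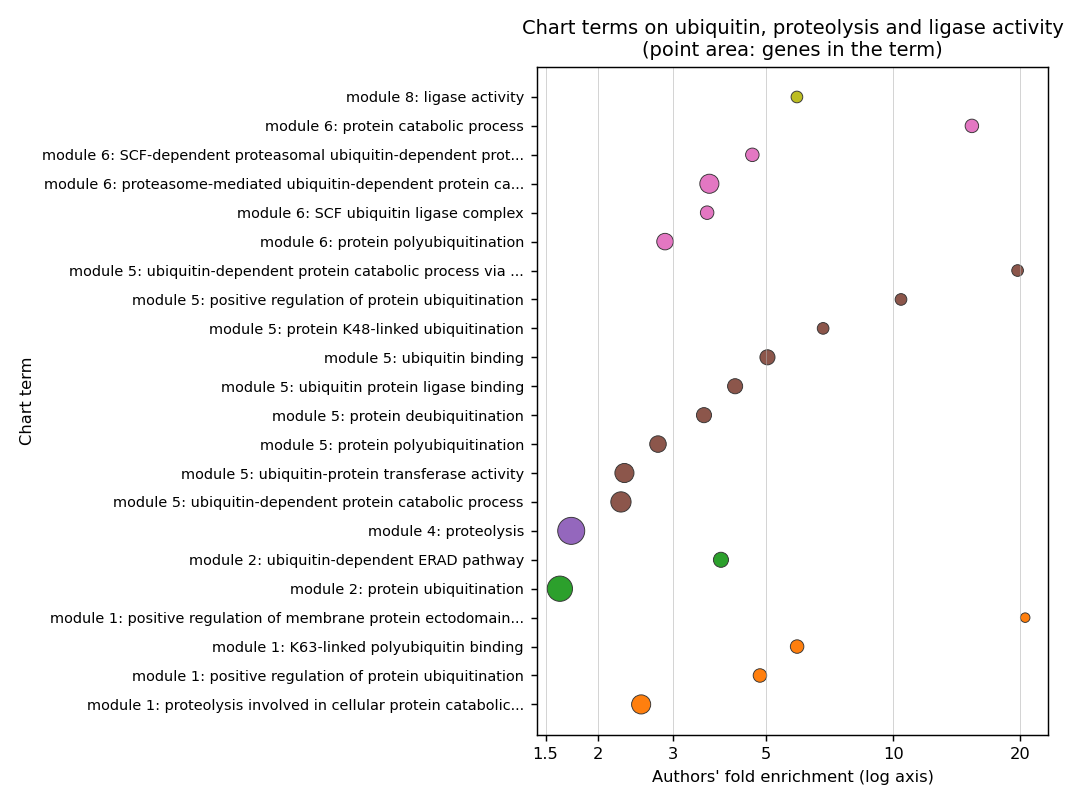
Authors' fold enrichment (horizontal log axis) of the 22 chart terms on ubiquitin, proteolysis, protein breakdown or ligase activity, grouped by module, with point area in proportion to the genes in the term. Module 5 has 9 of the points and module 6 has 5, and none of the 22 passed an adjusted p of 0.05.

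Any term of their module's chart listed 52 of the 66 members (78.8%), against 75.4% of all identifiers with a symbol. All 13 proteases and all 10 proteasome genes were listed, but 22 of 35 ligases (62.9%). In module 1 the chart listed 8 of 17 members (47.1%), against 77.6% of all its named genes. In modules 5 and 6 it listed all 13 and all 16, against 76.7% and 78.2%. Absence means that a gene stood under no listed term, and the differences were not tested. FBXO30, FBXL14, TRIM46 and trim25l were among the 9 ligases of module 1 that stood under no term.

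Beyond the terms of this kind, 9 of the 16 members of module 6 stood under nucleus in the authors' deposited table, a term that passed there with 131 genes. That is 56.2% of these members (interval 29.9% to 80.2%), against 35.3% of all named genes of module 6. The 9 were PSMA5, PSMB4, PSMC5, USP7, USP28, usp40, OTUD7A, FBXO38 and UBE2QL1. In module 7, CUL4B and UBE2K stood under no term that passed. In module 1, RNF19A, RNF19B and RNF34 stood under membrane.

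A wider list of 412 names in 9 groups covers ligases, adaptors, proteases, receptors and ubiquitin-like systems outside the prefixes above. It had 93 identifiers in the modules, 20.4% of its 456 matches in the name table, against 12.5% of all named genes. Module 1 held 23, module 5 held 22 (23.7%, interval 15.5% to 33.6%, against 11% of all named genes), module 2 held 21 (22.6%, interval 14.6% to 32.4%, against 14%), modules 4 and 6 held 8 each, module 7 held 7 and modules 3 and 8 held 2 each. Module 6, with 24.2% of the members, held 8.60% of the wider list (interval 3.79% to 16.2%), which is near its 10.2% of all named genes.

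Of the 26 other RING and U-box ligases, 8 lay in module 5, which holds 11% of all named genes. Among the 8 were MARCHF2, MARCHF5, MARCHF7 and marchf1. These 4 marchf ligases carry the present form of the march names and so are not members. Another ligase of these names, MARCHF6 of the endoplasmic reticulum, lay in module 1. The p53 ligase mdm2 lay in module 4, and xiap, which blocks caspases, in module 5. Of the 8 ligases of the HECT type outside the ube3 names, HECTD2, HERC2 and SMURF1, a ligase of TGF-beta receptors and SMAD proteins, lay in module 1. NEDD4L, which removes ion channels from the surface, lay in module 5.

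Among proteasome regulators, 4 of 7 lay in module 2, which holds 14% of all named genes, and 2 of the 4 carry the NFE2L1 name. NFE2L1, with a further identifier named nfe2l1b, is the factor that raises proteasome genes when the proteasome is short, NFE2L2 is its relative of the oxidative stress response, and AKIRIN2 brings proteasomes into the nucleus. The same module held keap1a, the cullin adaptor that removes NFE2L2, and VCP, the ATPase that pulls ubiquitin-tagged proteins out of membranes, with selenos and AUP1 of the same route. The other 3 of the 6 listed genes of that route lay elsewhere, DERL1 in module 1, EDEM1 in module 5 and DERL3 in module 7. PSMF1, an inhibitor of the proteasome, lay in module 7. Of 16 receptors and sorting genes, 6 lay in module 1, near its 33.4% of all named genes, and 5 in module 5, which holds 11%. Those of module 1 include the autophagy receptors SQSTM1, OPTN and TAX1BP1, and those of module 5 include nbr1b. DDB1, the adaptor base of CUL4 ligases, lay in module 6 and CRBN, an adaptor that docks on it, in module 8. Neither thus shared module 7 with CUL4B, a module that holds 9.23% of all named genes. Other deubiquitinases numbered 4 of the 28 in the name table (14.3%), near the 12.5% of all named genes. They were TNFAIP3 and PRPF8 in module 1, MINDY2 in module 3 and EIF3F in module 7. Of these, PRPF8 and EIF3F are known as parts of the splicing and translation machinery. The 6 genes of ubiquitin-like systems lay in module 5 (isg15, senp7b, ubl3b and ubl7b) and module 2 (PIAS1 and senp2). These modules hold 11% and 14% of all named genes. The 6 were 10.2% of the 59 such identifiers of the name table, against 12.5% of all named genes. The anaphase-promoting complex had 1 of its 17 identifiers of the name table in the modules (5.88%), ANAPC13 in module 7.

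**Figure D5:**
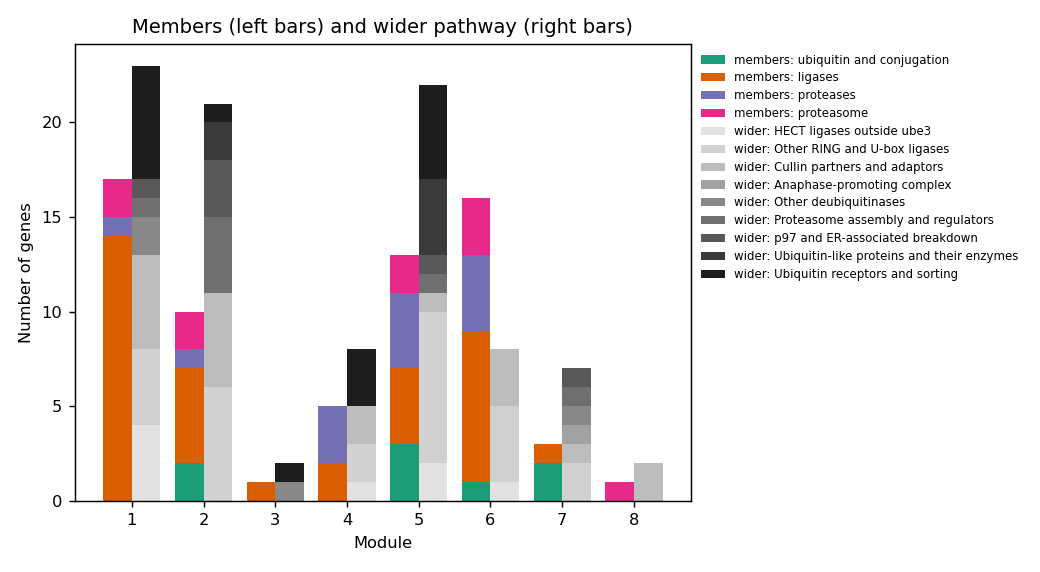
Number of genes in each module, as stacked bars: members by class (left, coloured) and the wider ubiquitin pathway by group (right, grey). Module 6 has 16 members but 8 genes of the wider list, and module 2 has 10 members and 21 of the wider list.

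The 3 muscle RING finger genes that the rule leaves out lay in 3 different modules: TRIM55 in module 2, trim63b in module 5 and trim63a in module 6. They encode ligases of the sarcomere known for muscle wasting, and the copies trim63a and trim63b were split. Of all pairs of named genes 18.1% share a module, and 32.2% of the 205 groups of relatives by name lie whole in 1 module.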

How the data were processed

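Single cells on 7 plates (3 wildtype and 4 hmga1a mutant) were sequenced by SORT-seq with CEL-Seq2 chemistry, per the labels. The submitters' processing notes name Seurat without a role. For the aligner, the build and the making of the modules the answer is the same: not given in the sources used here. Deposited files are 8 lists of identifiers without values and 8 annotation charts. In the charts the deposited counts are counts of genes, the percent column gives each term's genes as a percent of the module, the fold enrichment is a ratio, and the p-values were computed by the authors, as the headers name them. The background of the module shares is every identifier with a symbol, 3651 of 4449 (82.1%), named from a table of 29201 genes. Shares of families lying in any module are set against all genes of that table. Chart terms are set against all terms of the charts, and groups of relatives against all such groups. RefSeq assembly GRCz12tu served for synonyms only. Members, lists and alternatives were chosen with earlier results of these data known. A few genes enter the counts but are not reported here by name. No test between groups was made, since no value per plate was used. Intervals are exact 95% Clopper-Pearson (scipy 1.17.1, pandas 2.3.3, matplotlib 3.10.9), and the symbol rule was tested on made-up names. No sequences were used here.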

Additional observations from a re-analysis of the deposited data

How the results depend on the processing

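The number of members was 66, and 52 to 74 over 8 alternatives: 66 with RefSeq synonyms, 64 with copies counted once or without USP39 and uspl1, 71 with marchf and ube4 names, 69 with trim54, trim55 and trim63, 63 without module 7, 52 in the first ascending run of each list, and 74 with the marchf and trim names together, chosen after seeing the data. In these alternatives the share of members stayed above that of all named genes in modules 2, 5 and 6 (14.1% to 19.2%, 18.8% to 24.3% and 21.2% to 25.4%) and below it in the others. The alternatives share most of their members, so their likeness is not independent support. In module 2 the lowest share, 14.1% with the marchf and ube4 names, barely exceeded the 14.0% of all named genes. In the first ascending run, modules 3 and 8 held 0% of the members, since their single genes stand in later runs. Of the 22 chart terms on ubiquitin, proteolysis or ligase activity, 0 passed the adjusted threshold, 12 passed an unadjusted p under 0.05, and the same 12 had at least 3 genes. The wider list had 80 genes by exact symbol, against 93. No paired analysis was possible because the lists carry no values per plate, and for the same reason no plate was left out. The sequence alternative was not run. Without values, depth limits cannot be stated, and a gene in no module may be unchanged, undetected or filtered.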
